A study of Mus musculus with 32 samples.

Results

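The genes described here are 10 genes of the PIWI-interacting RNA (piRNA) pathway, taken as a fixed list of symbols and matched to gene identifiers through the GENCODE M21 mouse annotation. They are the PIWI genes Piwil1, Piwil2 and Piwil4, the RNA helicase genes Ddx4 and Mov10l1, the mitochondrial factor genes Pld6 and Asz1, the methyltransferase gene Henmt1, and Mael and Gtsf1, whose proteins work with PIWI proteins. All 10 were among the 20368 genes of the juvenile gene table and in the adult table. RNA-seq had been done on germ cells of 28 C57BL/6J male mice in the first wave of spermatogenesis, with 3 mice at 8 days post-partum (dpp) and 5 at every second day from 10 to 18 dpp (those of 14 dpp are numbered 1, 2, 3, 6 and 7). Every library came from 1 mouse. The 8 dpp group is what remained after the authors dropped samples of that age that stood apart from the others, so its spread is that of the mice kept. A further 4 libraries came from pachytene and diplotene spermatocytes of 9-week-old C57BL/6J males, enriched by sedimentation at unit gravity, each pooled from 6 mice. No group was treated or carried an engineered allele. The juvenile libraries are mixed germ cells of that age, released from washed seminiferous tubules by digestion and passed through a mesh, which the study scored by microscopy as nearly pure germ cells, whereas the adult libraries are an enriched and not a pure cell type.

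piRNAs are small RNAs of the germ line that guide PIWI proteins to complementary RNA. Long single-stranded precursors are unwound and cut on the surface of mitochondria and in germ granules, loaded onto a PIWI protein, trimmed and methylated at the tail end. In the mouse testis an early, transposon-rich population is loaded onto MILI (Piwil2) and MIWI2 (Piwil4) before and around birth. A second population, the pachytene piRNAs, is made in spermatocytes and is bound by MILI and MIWI (Piwil1).

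Values are TPM, transcript abundances that sum to 1000000 in a library, which are scaled for transcript length and so allow levels of different genes to be set side by side within a library. TPM holds no read counts, so the depth of a library is unknown and the error given is the spread between mice. The libraries nevertheless carried RNA of other cells. All 8 Sertoli cell markers (among them Sox9, Wt1 and Amh) were measured, and their summed level was 6709.8 to 7572 TPM at 8 dpp, 3257 to 4251 TPM at 18 dpp and 292 to 433 TPM in the adult samples. Clu made up most of this sum, its mean falling from 5377 TPM in the youngest mice to 2899 TPM in the oldest juveniles. Between those ages the mean rose for Rhox5 (36.6 to 68.4 TPM) and Gata1 (43.7 to 68.5 TPM) and fell for every other Sertoli marker. The summed level of 6 spermatogonial markers (among them Zbtb16, Kit and Dmrt1) averaged 913 TPM at 8 dpp, 459 TPM at 18 dpp and 30.0 TPM in the adult samples, and that of 6 pachytene markers (among them Pgk2, Ldhc and Hspa2) averaged 67.1, 4719 and 11867 TPM. The adult samples also held 882 to 1189 TPM of 6 spermatid markers (among them Prm1 and Tnp1), against at most 14.5 TPM in any juvenile mouse. Peritubular markers (all 5 measured) averaged 1101 TPM at 8 dpp, 741 TPM at 18 dpp and 7.76 TPM in the adult samples, and Leydig markers (all 6) 188, 267 and 234 TPM. Most of the adult Leydig sum was Insl3, with means of 112 TPM at 18 dpp and 176 TPM in the adult samples. The means of the other Leydig markers were lower in the adult samples than at 18 dpp. At 18 dpp mice 1 to 3 stood apart from mice 4 and 5, with 5630.3 to 5749 against 3137 to 3337 TPM of pachytene markers. In such mixtures a larger share of expressing cells and more RNA per cell cannot be told apart, and the part of these markers in the results below was not tested.

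The sequences around the transcription starts are shown first, because all but 1 of the genes were higher at 18 than at 8 dpp. RefSeq (GRCm38.p6) gave a window from 250 bases before to 50 bases after the start for 9 of the 10 genes, in 11 windows, since Piwil4 and Pld6 each had 2. Piwil2 had no entry. The 5 windows printed are those of the PIWI genes that moved most in opposite directions, of both helicase genes and of Mael, the most abundant of the genes. They lie at chr5:128735996-128736295 (plus strand, Piwil1), chr9:14740623-14740922 (minus strand, the first window of Piwil4), chr15:88982744-88983043 (plus strand, Mov10l1), chr13:112652261-112652560 (minus strand, Ddx4) and chr1:166238695-166238994 (minus strand, Mael). The window of Piwil1 lies inside the span that GENCODE gives the gene, which begins at 128702524. Each is written 5′ to 3′ along the gene, with capitals marking every match to the motifs searched.
Piwil1: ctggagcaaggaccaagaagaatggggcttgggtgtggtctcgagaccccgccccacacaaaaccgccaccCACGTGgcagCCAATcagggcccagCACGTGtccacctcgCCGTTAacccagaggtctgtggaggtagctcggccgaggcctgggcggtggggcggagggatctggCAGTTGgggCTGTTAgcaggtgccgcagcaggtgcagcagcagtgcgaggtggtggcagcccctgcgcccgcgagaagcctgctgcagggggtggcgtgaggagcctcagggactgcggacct
Piwil4: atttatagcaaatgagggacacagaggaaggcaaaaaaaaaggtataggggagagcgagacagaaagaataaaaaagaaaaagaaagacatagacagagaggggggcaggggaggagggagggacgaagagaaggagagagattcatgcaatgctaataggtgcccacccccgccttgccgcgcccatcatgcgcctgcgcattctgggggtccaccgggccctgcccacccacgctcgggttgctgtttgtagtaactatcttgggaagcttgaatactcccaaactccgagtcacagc
Mov10l1: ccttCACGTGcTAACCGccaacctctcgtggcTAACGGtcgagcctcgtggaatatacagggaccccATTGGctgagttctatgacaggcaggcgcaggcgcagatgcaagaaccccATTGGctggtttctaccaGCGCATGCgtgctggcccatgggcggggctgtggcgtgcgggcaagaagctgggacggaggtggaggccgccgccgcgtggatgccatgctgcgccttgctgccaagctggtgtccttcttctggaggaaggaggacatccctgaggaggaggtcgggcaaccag
Ddx4: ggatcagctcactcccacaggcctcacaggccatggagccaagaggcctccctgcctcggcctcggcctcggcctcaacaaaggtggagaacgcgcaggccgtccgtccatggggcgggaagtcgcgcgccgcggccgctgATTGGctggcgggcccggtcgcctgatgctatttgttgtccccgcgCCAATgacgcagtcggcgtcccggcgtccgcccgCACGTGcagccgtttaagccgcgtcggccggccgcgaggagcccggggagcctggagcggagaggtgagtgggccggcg
Mael: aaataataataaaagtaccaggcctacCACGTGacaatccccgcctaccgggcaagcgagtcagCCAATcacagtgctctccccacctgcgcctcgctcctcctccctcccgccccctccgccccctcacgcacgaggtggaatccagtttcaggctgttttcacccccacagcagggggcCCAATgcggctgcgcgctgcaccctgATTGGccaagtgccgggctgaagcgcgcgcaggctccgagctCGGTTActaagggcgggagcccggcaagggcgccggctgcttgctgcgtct

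7 motifs had been searched on both strands, and matches that overlap or adjoin appear as 1 run of capitals. The E-box CACGTG, which reads the same on both strands, was present in 5 of the 11 windows, those of Piwil1, Mov10l1, Ddx4, Mael and the second window of Pld6, and in 7.15% of all 32851 promoter windows of the same length. The Piwil1 window held 2 copies. The NFY box CCAAT was in 5 of the 11 windows, against 37.4% of all windows, and was found in the same 5 windows as the E-box. A MYB element, CAACNG or TAACNG, was in 6 of the 11, against 49.7%. The NRF1 motif GCATGCGC was in the Mov10l1 window alone of the 11, against 2.71% of all windows. No match was found in these windows for the CRE TGACGTCA, the E2F motif TTTCCCGC or the RFX motif GTTGCCATG, which were in 1.79%, 1.07% and 0.773% of all windows. The windows of Asz1, Henmt1 and Gtsf1 and the first window of Piwil4 held none of the motifs searched. The G and C content of the 11 windows was 49.3% to 75.3% with a median of 63.3%, against a median of 52.7% over all windows. Both windows of Piwil4, at 52.7% and 49.3%, did not exceed that median, and the other 9 did. The pair CG, which the E-box CACGTG contains, occurred a median of 18 times in the 11 windows, against a median of 7 over all windows. The shares of windows with a motif were not adjusted for this. These matches describe letters and not binding.

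The first question was how the genes changed through the first wave of meiosis, from 8 to 18 dpp. By the study's cell counts, spermatogonia were the majority of the germ cells at every age, with a share that fell over time. Late pachytene spermatocytes were abundant by 16 to 18 dpp. Of the 10 genes, 9 rose and 1, Piwil4, fell between 8 and 18 dpp. Piwil1 rose most, followed by Mael and Gtsf1, while Asz1, Mov10l1 and Piwil2 rose least. The calls were made with limma on log2(TPM + 1) with the 6 ages in 1 model, adjusted over all 20368 genes. In that comparison 68.2% of all genes were called, 31.8% higher and 36.3% lower, so a call by itself is common here. The median log2 fold change of the 10 genes was 1.47, beside a median of -0.09 over all genes. Every gene of the list was also called in the test for any difference among the 6 ages, as were 77.6% of all genes. With mice 1 to 3 of each age alone the counts for 18 versus 8 dpp were the same, 9 higher and 1 lower. The share of all genes called with those mice alone was not counted.

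**Figure D1:**
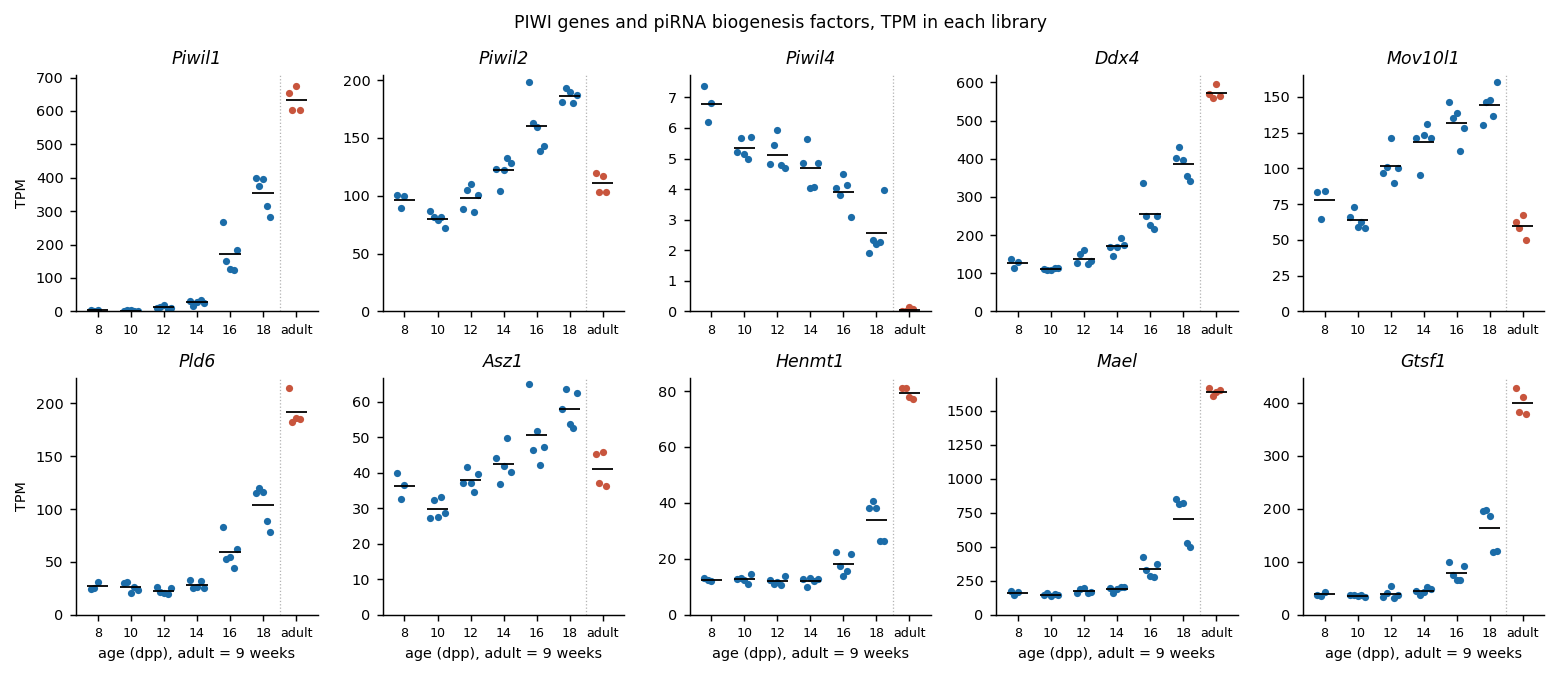
TPM (vertical axis, from 0) of each gene in each library, by age in dpp, with the adult samples right of the dotted line and in red. Each point is 1 mouse or 1 adult sample and each bar the mean. Piwil1 goes from 1.96 to 3.06 TPM at 8 dpp to 281 to 401 TPM at 18 dpp, Piwil4 falls over the same ages, and at 18 dpp the points of mice 4 and 5 lie below those of mice 1 to 3 for Piwil1, Ddx4, Pld6, Henmt1, Mael and Gtsf1.

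The PIWI genes moved apart. Piwil1 (ENSMUSG00000029423, chr5:128702524-128755474, GRCm38) encodes MIWI, the PIWI protein of pachytene piRNAs. Its level was 2.62, 1.96 and 3.06 TPM in the 3 mice at 8 dpp and 2.01, 3.02, 3.07, 2.12 and 1.77 TPM at 10 dpp. At 12 dpp it was 9.73, 13.1, 19.8, 7.91 and 9.22 TPM, and at 14 dpp 31.7, 16.9, 28.3, 33.1 and 24.7 TPM. All mice at 12 dpp were above all mice at 10 dpp, and the ranges at 12 and 14 dpp overlapped through 1 mouse of each age. It was then 267, 152, 128, 124 and 185 TPM at 16 dpp and 401, 375, 397, 314 and 281 TPM at 18 dpp. No mouse at 16 dpp overlapped any at 14 dpp, and none at 18 dpp overlapped any at 16 dpp. The mean at 18 dpp was 139 times that at 8 dpp, with a log2 fold change of 6.64 ± 0.25 (SE, limma adjusted p = 2.592e-17). The steps were 1.88 ± 0.21 from 10 to 12 dpp (limma adjusted p = 2.943e-07), 1.14 ± 0.21 from 12 to 14 dpp (adjusted p = 0.0201), 2.60 ± 0.21 from 14 to 16 dpp (adjusted p = 1.269e-09) and 1.09 ± 0.21 from 16 to 18 dpp (adjusted p = 1.298e-04). The call from 12 to 14 dpp was lost when 12 dpp mouse 1, 4 or 5 or 14 dpp mouse 1, 3, 6 or 7 was left out, with log2 fold changes of 1.03 to 1.16 and limma adjusted p of 0.0543 to 0.111. A gene on the other strand, 4930553I04Rik, overlaps Piwil1, and the sources used here do not state whether reads were assigned by strand.

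Piwil2 (ENSMUSG00000033644, chr14:70372477-70429383) encodes MILI, which is needed from the fetal stages onward. It was the most abundant PIWI gene up to 14 dpp. Its level was 100.4, 89.1 and 99.6 TPM at 8 dpp, 86.4, 81.4, 78.8, 81.2 and 72.3 TPM at 10 dpp and 181, 193, 189.8, 180.0 and 187 TPM at 18 dpp. Every mouse at 10 dpp was below every mouse at 8 dpp, a step of -0.27 ± 0.09 on the log2 scale that did not pass (limma adjusted p = 0.213), and every mouse at 18 dpp was above both. The mean rose 1.93-fold from 8 to 18 dpp, with a log2 fold change of 0.94 ± 0.09 (limma adjusted p = 1.269e-09). The rise was called from 10 to 12, 14 to 16 and 16 to 18 dpp, at 0.28 ± 0.08, 0.39 ± 0.08 and 0.22 ± 0.08. The last of these was lost without 16 dpp mouse 4 or 5 or 18 dpp mouse 2 (log2 fold changes of 0.17 to 0.21), with mice 1 to 3 alone (0.12) and under quantile normalization (0.12). It was also lost, at an unchanged 0.22, with no filter on the summed transcripts and with only the 2 ages in the model.

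Piwil4 (ENSMUSG00000036912, chr9:14696230-14740733, minus strand) encodes MIWI2, a nuclear PIWI protein that directs DNA methylation of transposons in fetal germ cells. It was the only gene of the list that fell. Its level was 7.38, 6.20 and 6.82 TPM at 8 dpp, 5.23, 5.66, 5.15, 4.99 and 5.70 TPM at 10 dpp and 4.03, 3.81, 4.48, 4.13 and 3.09 TPM at 16 dpp. At 18 dpp it was 1.92, 2.34, 2.22, 2.28 and 3.98 TPM. No mouse at 18 dpp reached any mouse at 8 dpp, although mouse 5 lay within the range at 16 dpp. The log2(TPM + 1) value fell by 1.16 ± 0.14 from 8 to 18 dpp (limma adjusted p = 4.805e-08) and by 0.49 ± 0.12 from 16 to 18 dpp (adjusted p = 0.00160), the only single step called. With a pseudocount of 5 the first of these values was -0.65. Over the same ages the summed spermatogonial markers went from 913 ± 31.3 to 459 ± 81.4 TPM (SD). Gm10706, annotated as antisense to Piwil4, and a pseudogene overlap the gene, so its low level may include their reads.

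Since ratios within a mouse depend little on the scaling of the library, the PIWI genes were also compared directly. The Piwil1/Piwil2 difference of log2(TPM + 1) was -4.59 ± 0.25 at 10 dpp and 0.91 ± 0.22 at 18 dpp (SD, n = 5 each), a change of 5.50 ± 0.15 (SE). At 16 dpp the 2 genes were level, with a mean of 0.04 ± 0.33, and all 5 mice at 18 dpp had more Piwil1 than Piwil2. The Piwil1/Piwil4 value changed by 7.57 ± 0.25 and the Piwil2/Piwil4 value by 2.07 ± 0.15 from 10 to 18 dpp. For each of these 3 changes the two-sided exact permutation p was 0.00794, the smallest that 5 against 5 mice allow, and the adjusted p over 18 such tests was 0.0130. Of the 18 tests, the 3 between 8 and 10 dpp did not pass, with adjusted p of 0.281 to 0.75. With mice 1 to 3 only, 3 against 3 cannot go below an exact p of 0.1, and the changes were 5.56, 7.75 and 2.19.

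**Figure D2:**
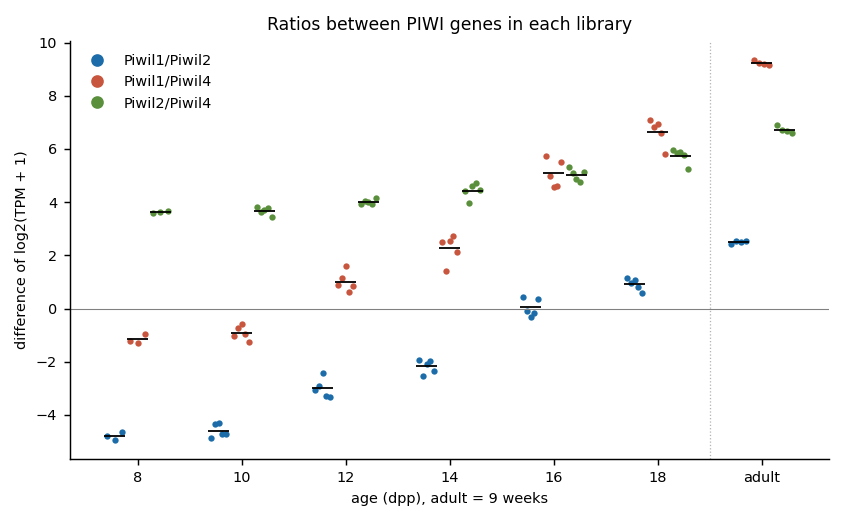
Difference of log2(TPM + 1) between pairs of PIWI genes (vertical axis) in each library, by age in dpp, with the adult samples right of the dotted line. Each point is 1 library and each bar the mean. Piwil1/Piwil2 crosses 0 at 16 dpp, where its mean is 0.04, and all 3 ratios are higher at 18 than at 10 dpp.

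The helicase genes followed different courses. Ddx4 (ENSMUSG00000021758, chr13:112598333-112652475) encodes the VASA homologue of germ granules, and Mov10l1 (ENSMUSG00000015365, chr15:88982909-89055152) the helicase that feeds precursors to the cleavage machinery. Ddx4 was at 113 to 138 TPM at 8 dpp, 109.0 to 113 TPM at 10 dpp, 146 to 192 TPM at 14 dpp, 215 to 337 TPM at 16 dpp and 341 to 432 TPM at 18 dpp. It rose 1.59 ± 0.11 on the log2 scale from 8 to 18 dpp (limma adjusted p = 1.3e-12), with calls from 14 to 16 and 16 to 18 dpp (0.57 ± 0.10 and 0.61 ± 0.10) and from 10 to 12 dpp (0.31 ± 0.10). The call from 10 to 12 dpp was lost without 12 dpp mouse 2 or 3, at 0.28 and 0.25, with median-of-ratios scaling and with no filter on the summed transcripts. Mov10l1 had its largest step from 10 to 12 dpp, and its mean rose further from 102 TPM at 12 dpp to 144 TPM at 18 dpp. It was 66.2, 72.8, 58.9, 62.3 and 58.5 TPM at 10 dpp and 96.8, 101, 121, 89.8 and 100.04 TPM at 12 dpp, without overlap, a log2 fold change of 0.66 ± 0.09 (limma adjusted p = 7.064e-06). No later step of Mov10l1 was called, and its level at 18 dpp was 130 to 160.0 TPM, where the 8 dpp mice had 64.9 to 84.2 TPM. With median-of-ratios scaling the step from 16 to 18 dpp was called too, at 0.30 against 0.13.

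Pld6 (ENSMUSG00000043648, chr11:59783897-59787645) encodes the mitochondrial nuclease that cuts piRNA intermediates, and Asz1 (ENSMUSG00000010796, chr6:18050964-18109061) an ankyrin-repeat protein that anchors pathway proteins near mitochondria. Pld6 did not pass the test in any step up to 14 dpp, with 24.5 to 31.0 TPM at 8 dpp and 25.1 to 32.8 TPM at 14 dpp. It was then 83.1, 53.0, 54.9, 44.0 and 62.3 TPM at 16 dpp and 115, 119.8, 116, 88.5 and 78.7 TPM at 18 dpp. The mice at 16 dpp were all above those at 14 dpp, and 1 mouse at 16 dpp lay within the 18 dpp range. The log2 fold changes were 1.03 ± 0.14 from 14 to 16 dpp (limma adjusted p = 4.286e-06) and 0.80 ± 0.14 from 16 to 18 dpp (adjusted p = 4.772e-05). These levels are sums over transcripts, and ENSMUST00000051493, annotated as a processed transcript, held a mean of 77.9% of Pld6 at 18 dpp. Asz1 changed least of the list, from 32.7 to 39.9 TPM at 8 dpp to 52.6 to 63.6 TPM at 18 dpp, a log2 fold change of 0.66 ± 0.11 (limma adjusted p = 6.458e-06). Its step from 10 to 12 dpp was called, at 0.34 ± 0.09, and the steps from 14 to 16 and 16 to 18 dpp, at 0.23 and 0.21, were called only under some settings (without 14 dpp mouse 6 or 16 dpp mouse 4 for the first, without 16 dpp mouse 1 or 18 dpp mouse 4 for the second, and with median-of-ratios scaling for both; the first also with mice 1 to 3 alone).

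Henmt1, Mael and Gtsf1 formed a late group with Pld6. Henmt1 (ENSMUSG00000045662, chr3:108939873-108960774) encodes the enzyme that methylates the tail end of finished piRNAs and so protects them. It stayed between 10.0 and 14.4 TPM in every mouse from 8 to 14 dpp, then reached 13.7 to 22.5 TPM at 16 dpp and 38.1, 40.8, 38.3, 26.2 and 26.4 TPM at 18 dpp. Its log2 fold changes were 0.52 ± 0.13 and 0.86 ± 0.13 in the last 2 steps (limma adjusted p = 0.00371 and 6.522e-06). Gm9857, a protein-coding gene on the other strand, overlaps Henmt1. Mael (ENSMUSG00000040629, chr1:166201201-166238747) encodes Maelstrom, a germ granule protein required for transposon silencing. By mean it was the most abundant of the 10 genes at every age, although its range overlapped that of Ddx4 at 12, 14 and 16 dpp. It was 171, 143 and 168 TPM at 8 dpp, 425, 326, 281, 273 and 374 TPM at 16 dpp and 850.3, 810.1, 823, 529 and 496 TPM at 18 dpp. Its log2 fold change was 0.81 ± 0.13 from 14 to 16 dpp and 1.04 ± 0.13 from 16 to 18 dpp (limma adjusted p = 5.001e-05 and 1.739e-06). Gtsf1 (ENSMUSG00000022487, chr15:103402405-103430470) encodes a zinc finger protein that assists cleavage by PIWI proteins. It went from 35.5 to 42.1 TPM at 8 dpp to 118 to 197 TPM at 18 dpp, with steps of 0.80 ± 0.15 and 1.02 ± 0.15 in the last 2 intervals (limma adjusted p = 2.926e-04 and 6.214e-06).

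Counted by step, calls among the genes were most frequent in the steps after 14 dpp, as they were over all genes. None of the 10 was called between 8 and 10 dpp by limma, where 1.20% of all genes were (0.977% higher and 0.226% lower). In that step 4 of the 10 had an unadjusted p under 0.05. The share of all genes at that unadjusted threshold was not counted, and the percentages given here are for adjusted p. 5 genes (Piwil1, Piwil2, Ddx4, Mov10l1 and Asz1) were higher at 12 than at 10 dpp, beside 12.0% of all genes called higher there and 9.39% lower, 21.4% in all. Only Piwil1 was called between 12 and 14 dpp, a step in which 0.172% of all genes were called, 0.157% higher and 0.0147% lower. There 5 of the 10 had an unadjusted p under 0.05, again with no share of all genes counted. This step cannot be told apart from a division of the libraries, since sequencing barcodes recur between the ages up to 12 dpp and those from 14 dpp. The same division lies between the groups compared at 18 and 8 dpp and, for the ratios and transcript shares, at 18 and 10 dpp, whereas the other steps lie within 1 side of it. 7 genes were higher at 16 than at 14 dpp, beside 12.7% of all genes (24.0% in either direction, 11.3% lower), and 7 higher and 1 lower at 18 than at 16 dpp, beside 23.4% and 30.6% (54.0% in all). Mice 1 to 3 alone gave 5 higher, 0, 8 higher, and 6 higher with 1 lower in those last 4 steps. The shares of all genes called with those mice alone were not counted. Pld6, Henmt1, Mael and Gtsf1 were first called at 16 dpp.

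**Figure D3:**
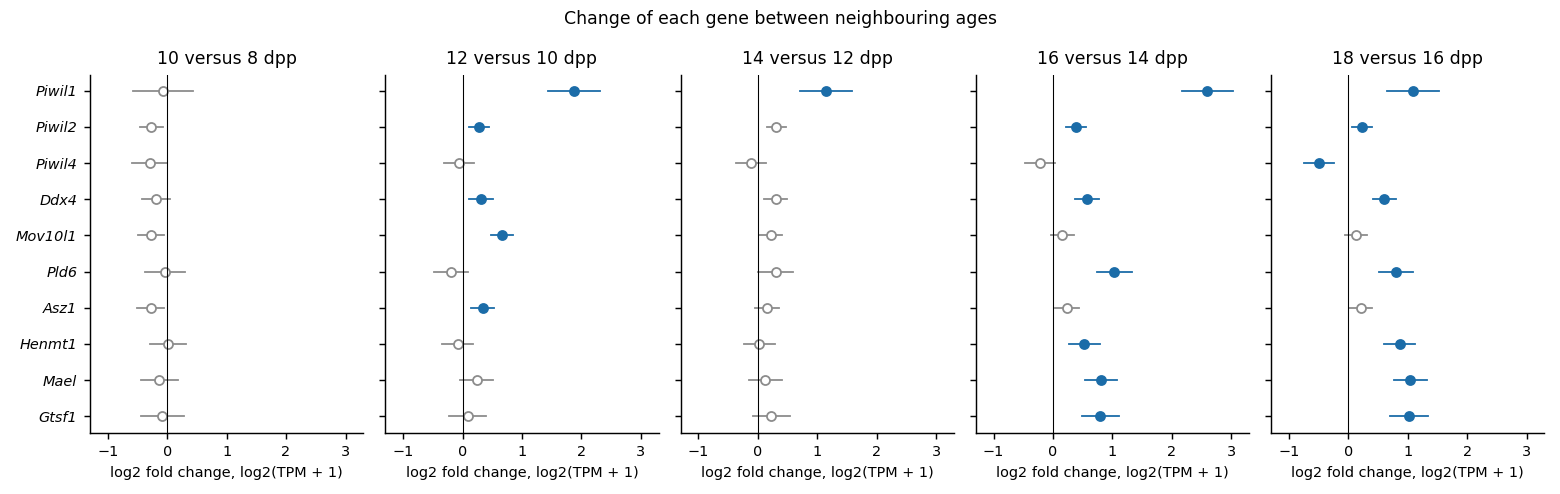
Log2 fold change of each gene on the log2(TPM + 1) scale (horizontal axis) in each step between neighbouring ages, from limma. Points are estimates, lines their 95% intervals, and filled blue points those with an adjusted p under 0.05. Piwil1 is the only gene called in every step after 10 dpp, and Piwil4 the only one below 0 among the called.

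The weight of the genes within the pathway shifted. Their summed level was 584 TPM at 8 dpp, 759 TPM at 14 dpp and 2133 TPM at 18 dpp. Piwil1 made up 0.436% of that sum at 8 dpp, when it was the lowest of the 10 and did not overlap Piwil4 above it, and 16.6% at 18 dpp. At 18 dpp the order was Mael, Ddx4, Piwil1, Piwil2, Gtsf1, Mov10l1, Pld6, Asz1, Henmt1 and Piwil4. The ranges of Ddx4 and Piwil1, of Piwil2 and Gtsf1, and of Gtsf1 and Mov10l1 overlapped, and the other neighbours in the order did not. The summed level of the 214 piRNA precursors of the alignment index, none of which is a gene of this list, was 98.3 ± 4.05 TPM at 8 dpp, 172 ± 25.5 TPM at 14 dpp, 358 ± 84.5 TPM at 16 dpp (SD) and reached 764 ± 157 TPM 2 days later.

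Within 18 dpp the genes divided by mouse. Mice 1 to 3 were all above mice 4 and 5 for 6 of the 10 genes (Piwil1, Ddx4, Pld6, Henmt1, Mael and Gtsf1), as they were for 25.2% of all genes, and were all below them for none, against 32.7% of all genes. Mael had 810.1 to 850.3 TPM in the former and 496 to 529 TPM in the latter, and Gtsf1 186 to 197 against 118 to 121 TPM. For Piwil2, Piwil4, Mov10l1 and Asz1 the 2 sets of mice overlapped. The same mice had more pachytene markers, as given above, and fewer Sertoli markers (3257 to 3406 against 4196 to 4251 TPM), and the part of this in the values was not tested.

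How the juvenile levels stood beside enriched adult spermatocytes was the next question. The adult values were normalized in a separate table, so they are set side by side with no test. In the adult samples Piwil1 was at 654, 603, 675 and 602 TPM, Mael at 1666, 1608, 1636 and 1654 TPM, and Gtsf1 at 427, 382, 410.3 and 378 TPM. Ddx4 had 559 to 596 TPM, Pld6 183 to 215 TPM and Henmt1 77.0 to 81.2 TPM. In these 6 genes every adult sample was above every 18 dpp mouse, as in 22.3% of all 20366 genes present in both tables. Ratios of the means to 18 dpp lay between 1.49 for Ddx4 and 2.44 for Gtsf1. In the other 4 every adult sample was below every 18 dpp mouse, as in 53.4% of all genes. Piwil2 was at 119.8, 103, 117 and 103 TPM, above every mouse at 8 dpp. Mov10l1 was at 62.8, 58.0, 67.1 and 49.7 TPM and Asz1 at 45.2, 37.0, 45.8 and 36.3 TPM, both overlapping their ranges at 8 dpp. Piwil4 was listed at 0 in 2 adult samples and at 0.15 and 0.07 TPM in the others. The adult Piwil1/Piwil2 difference of log2(TPM + 1) was 2.51 ± 0.05 (SD, n = 4). Mael made up 44.0% of the summed level of the 10 genes, 3729 TPM, against 32.9% at 18 dpp. The precursors summed to 1628 ± 67.7 TPM.

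Transcript usage was compared between 10 and 18 dpp as the share of a gene's TPM that a transcript held, in percent. Of the 10 genes, Piwil1, Piwil2 and Mael have 1 transcript in the table, and 19 transcripts of 6 genes could be tested. 3 transcripts of 2 genes were called, which took an adjusted p under 0.05 together with a shift of 20 points or more, beside 3.37% of all 26476 transcripts tested. In Gtsf1 the share of ENSMUST00000023129 was 49.96%, 52.7%, 59.5%, 63.1% and 51.8% at 10 dpp and 81.5%, 78.8%, 81.1%, 90.5% and 84.2% at 18 dpp, without overlap. It rose by 27.8 ± 5.02 points (SE, limma adjusted p = 3.416e-04). The second Gtsf1 transcript, ENSMUST00000141364, went from a mean of 29.3% to 9.74% (limma adjusted p = 0.0786). In Pld6 the coding transcript ENSMUST00000125307 (948 bases) fell by 21.7 ± 5.56 points and ENSMUST00000051493 (1753 bases, annotated as a processed transcript) rose by the same 21.7 ± 5.51 points (limma adjusted p = 0.00916 and 0.00848). The share of ENSMUST00000051493 was 52.2%, 47.8%, 70.0%, 48.9% and 62.2% at 10 dpp and 83.9%, 74.0%, 79.1%, 71.4% and 81.3% at 18 dpp. Both Pld6 transcripts had a higher mean at 18 dpp, 22.8 against 11.8 TPM and 80.7 against 14.4 TPM. The Pld6 calls were lost without 10 dpp mouse 2 or 4, where the shifts of 19.6 and 19.9 points fell just under 20 with limma adjusted p of 0.0269 to 0.0304, leaving 1 called transcript, and without 10 dpp mouse 1 a pair of Henmt1 transcripts were called as well. Shares are estimates that RSEM made from reads that the transcripts of a gene share.

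**Figure D4:**
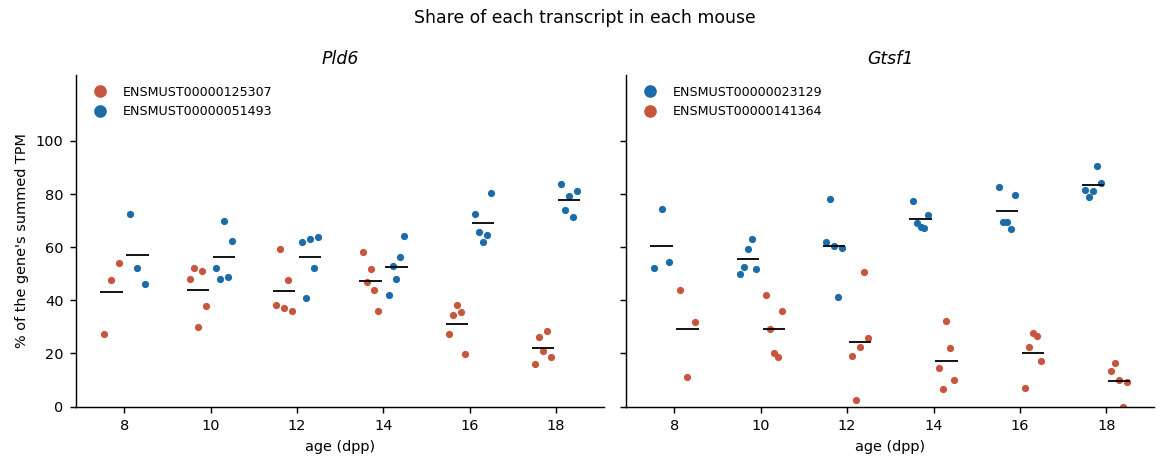
Share of the gene's summed TPM (vertical axis, percent) held by 2 transcripts of Pld6 and of Gtsf1 in each juvenile mouse, by age in dpp. Each point is 1 mouse and each bar the mean. The shares of ENSMUST00000051493 and ENSMUST00000023129 lie above 70% in every mouse at 18 dpp.

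The genes most like each PIWI gene were sought by Pearson's r of log2(TPM + 1) over the 28 mice, among 10187 genes with a symbol and a mean of at least 10 TPM. These values share the course of age and are given as a description. Piwil1 was most like Psma8, a testis proteasome subunit, Ldhc, the testis lactate dehydrogenase and one of the pachytene markers above, and Adam2, a sperm surface protease-family gene, all with r = 0.996. Piwil2 was most like Tdrd9 (0.985), Gpat2 (0.975) and Nell2 (0.975). Tdrd9 encodes a Tudor-domain helicase and Gpat2 a mitochondrial acyltransferase, and both are in the list of other pathway genes below. Among the genes most like Piwil4 were Ctdsp2 (0.943) and Ubtf (0.939), the latter of which encodes a ribosomal DNA transcription factor. Among the 10 genes themselves, Mael and Gtsf1 were most alike (r = 0.992, and 0.913 after each age's mean was removed), and Piwil4 had a negative r with each of the other 9, from -0.65 with Mov10l1 to -0.89 with Mael. After each age's mean was removed, Piwil4 had a positive r with 3 of the 9 (Mov10l1, Asz1 and Piwil2) and a negative r with 6, from -0.50 to 0.25.

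A fixed list of 27 other pathway genes, from Tudor-domain genes to the regulator Mybl1, gave the setting. Of these, 25 were in the gene table (Dnmt3l and Gtsf1l were not). The list was compiled with earlier results of these data known. From 8 to 18 dpp 15 rose, 7 fell and 3 were not called, with a median log2 fold change of 0.89, beside 31.8% of all genes higher and 36.3% lower. Median-of-ratios scaling gave 16 and 4, and quantile normalization 15 and 8. The 3 largest rises on the log2(TPM + 1) scale were those of Tdrd6, D1Pas1 and Gtsf2, although with a pseudocount of 5 Tdrd5 (2.79) took the place of Gtsf2 (1.57). Tdrd6, which encodes a Tudor-domain scaffold of the chromatoid body, averaged 0.107 TPM at the start and 208 TPM at the end of these ages. D1Pas1, a testis helicase gene, had 7.24 to 11.4 TPM and 84.4 to 142 TPM. Gtsf2, a paralogue of Gtsf1, was listed at 0 in all 3 mice at 8 dpp and had 21.98, 16.4, 19.4, 3.00 and 1.43 TPM at 18 dpp. The 3 largest falls were those of Morc1, which encodes a transposon-silencing ATPase (log2 fold change -0.97 ± 0.12), Kif17, a kinesin gene (-0.61 ± 0.15), and Tex19.1 (-0.55 ± 0.10), a germ cell gene linked to transposon control (limma adjusted p = 3.463e-08, 6.608e-04 and 2.371e-05).

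By step, none of the 25 was called by limma between 8 and 10 dpp or between 12 and 14 dpp (median-of-ratios scaling gave 1 lower from 8 to 10 dpp). In these steps 5 and 6 had an unadjusted p under 0.05, a threshold at which the share of all genes was not counted. 10 were higher and 1 lower at 12 than at 10 dpp, 12 higher and 1 lower at 16 than at 14 dpp, and 15 higher and 4 lower at 18 than at 16 dpp. Over all genes the shares were 12.0% and 9.39%, 12.7% and 11.3%, and 23.4% and 30.6%. Quantile normalization gave 12 higher and 3 lower from 14 to 16 dpp. Mybl1, which encodes the transcription factor A-MYB known to drive pachytene piRNA genes, had a mean of 12.2 TPM at 8 dpp, 47.7 TPM at 18 dpp and 83.0 TPM in the adult samples. It was called higher from 10 to 12 dpp (0.65 on the log2 scale) and from 16 to 18 dpp (0.72).

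**Figure D5:**
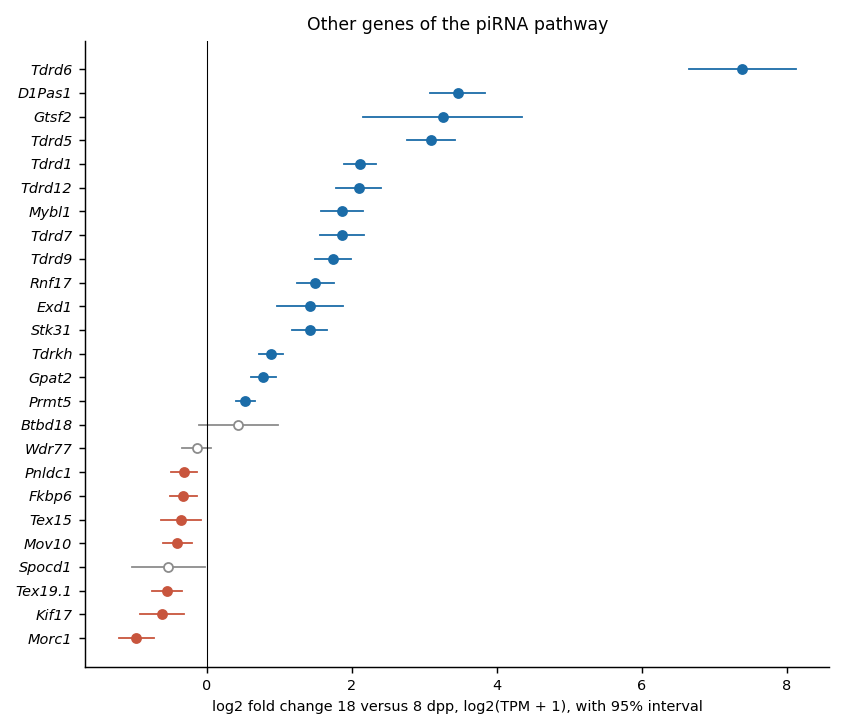
Log2 fold change from 8 to 18 dpp on the log2(TPM + 1) scale (horizontal axis) of the 25 other pathway genes in the gene table, from limma, with 95% intervals. Blue points were called higher (15 genes), red points lower (7), and open points were not called (3).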

How the data were processed

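Poly-A RNA of 28 juvenile and 4 adult samples of C57BL/6J mice had been sequenced as 100 bp paired-end reads. The authors aligned reads with Bowtie 1.0.0 to a transcript index of mm10 (Ensembl 75, NONCODE 4 and 214 piRNA precursors) and estimated abundance with RSEM 1.2.8, and the deposited juvenile transcript table and adult gene table hold TPM. The juvenile gene table deposited by the authors was expected in TPM but held a score, exp(log2(TPM + 1)) - 1. It was brought back to TPM, after which 20288 of 20368 genes lay within 0.2 TPM of their summed transcripts in every mouse and 80 did not. The authors' list of substages was not used, since it holds their own findings. TPM gives no depth and no counting error.

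Groups came from the sample labels. Each juvenile mouse was 1 sample. For the comparison of ages, log2(TPM + 1) was fitted by limma 3.58.1 (R 4.3.3) with the 6 ages in 1 model. The prior variance followed mean expression, and a gene was called at a Benjamini-Hochberg adjusted p under 0.05 over 20368 genes (at least 3 TPM in at least 1 mouse). Fold changes on this scale understate those of low genes. Transcript usage was tested with limma where a gene averaged 3 TPM or more at both ages and had 2 or more transcripts of 1 TPM. Ratios of PIWI genes used two-sided exact permutation tests, adjusted over 18 tests. Adult levels were not tested. Of the 10 genes, 10 passed the filter, Piwil4 with at most 7.38 TPM. The lists and genes were chosen with earlier results of these data known. Named outside the list are the 3 largest rises and falls from 8 to 18 dpp among called pathway genes, the 3 genes most like each PIWI gene (1 of those for Piwil4 is not reported here), and Mybl1, chosen after its values were seen. The fits were tested on simulated data. The remaining steps ran in Python 3.11.15 (scipy 1.17.1, numpy 2.4.6, pandas 2.3.3), with plots by matplotlib 3.10.9. The alternatives tried were the pseudocount, the filter, transcript sums, 2 other scalings, a constant prior variance, fits of only 2 ages, the mouse number as a block, mice 1 to 3 alone and leaving out each sample in turn. Barcodes recur between 8 to 12 dpp and 14 to 18 dpp (13 of 13), so the libraries were not all in 1 pool, and the step from 12 to 14 dpp cannot be told apart from that division.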

Additional observations from a re-analysis of the deposited data

Results flagged for a closer look

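Within each age of 5 mice and the 4 adult samples, the highest or lowest value of each of the 10 genes was compared with the others by Dixon's ratio. Of 60 such groups 4 had a sample far from the others, where chance flags about 1 in 20. Piwil4 in 18 dpp mouse 5 was at 3.98 TPM, with 1.92 to 2.34 TPM in the other 4 mice. Ddx4 in 16 dpp mouse 1 was at 337 TPM, with 215 to 249.6 TPM in the others. Mov10l1 in 14 dpp mouse 2 was at 95.6 TPM, with 121 to 131 TPM in the others. Pld6 in adult sample 1 was at 215 TPM, with 183 to 186 TPM in the others. No cause was tested for any of them.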

How the results depend on the processing

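All 10 genes were called for 18 versus 8 dpp and for any difference among ages under every alternative and with any mouse left out. Counts of genes called stayed between 4 and 6 (10 to 12 dpp), 7 and 8 (14 to 16 dpp) and 7 and 10 (16 to 18 dpp), and at 0 from 8 to 10 dpp. Among the alternatives, calls over all genes were counted only for the 2 other scalings. From 12 to 14 dpp the count of 1 became 0 with a pseudocount of 5, with no filter on the summed transcript table (which with the filter kept 1), with the replicate block (Piwil1 at 0.91, limma adjusted p = 0.480), with mice 1 to 3 alone and with only 2 ages in the model, and 0 to 2 when a mouse was left out. Of 2574 single-gene fold changes under alternatives, 2539 stayed called or stayed not called, 23 lost the call and 12 gained it. That total covers the 10 genes and, from 8 to 18 dpp, the other pathway genes with the 3 largest rises and the 3 largest falls. No change that was called in the main fit reversed direction. Direction was not counted for changes called in neither fit, and some of these crossed 0, such as Mael from 12 to 14 dpp (-0.04 to 0.20).

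Piwil1/Piwil2, Piwil1/Piwil4 and Piwil2/Piwil4 changes from 10 to 18 dpp were 5.56, 7.75 and 2.19 with mice 1 to 3 only (adjusted p = 0.15) and 5.50, 7.57 and 2.07 with same-numbered mice paired as a replicate block (adjusted p = 0.125), exact permutation designs too small to pass. Leaving out a mouse gave 5.43 to 5.58, 7.46 to 7.78 and 2.02 to 2.20, a pseudocount of 5 gave 4.42, 6.05 and 1.63, and one of 0.1 gave 5.95, 8.25 and 2.30. Called member transcripts numbered 3 under the other usage settings, the block included, and 1 to 5 when a mouse was left out. Mouse numbers did not pair the samples, with correlations of -0.25 to 0.25 (median 0.01) over 57 same-numbered pairs.

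Median-of-ratios scaling shifted the median of all genes by 0.16 from 16 to 18 dpp and from 8 to 18 dpp, and quantile normalization by -0.15 from 8 to 18 dpp. Over all genes, 18 versus 8 dpp gave 6487 higher and 7402 lower, 7589 and 5991 with the former and 5532 and 9148 with the latter. For 18 versus 16 dpp these were 4775 and 6227, 6193 and 3630, and 4531 and 7462, and for 16 versus 14 dpp 2594 and 2296, 2860 and 1454, and 2407 and 3375. The directions of the called genes of the list were the same under both.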

Other observations

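A pair of genes related to Gtsf1 were low in juvenile cells. Gtsf1l, taken from the transcript table because the gene table lacks it, had means of 0 to 0.07 TPM up to 16 dpp, 1.08 TPM at 18 dpp and 61.2 TPM in the adult samples, and Gtsf2 had 12.4 TPM at 18 dpp and 65.4 TPM in the adult samples, where Gtsf1 itself stood at 399 TPM. The adult samples also held spermatid markers, whose part in these levels was not tested.

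Of the 25 other pathway genes, every adult sample was above every 18 dpp mouse in 10 and below in 11, beside 22.3% and 53.4% of all genes. Against the mice of every juvenile age, the adult samples were above in 9 (among them Tdrd5, Tdrd6, Rnf17 and Kif17), below in 8 and overlapping in 8. The comparison with every juvenile age was not made over all genes, so these counts have no share to be read against. Among those below were the following. Fkbp6, a chaperone partner gene of the pathway, had a mean of 196 TPM at 18 dpp and 33.1 TPM in the adult samples, Tex15 81.5 and 5.87 TPM, and Mov10, the relative of Mov10l1, 58.0 and 6.22 TPM. These were chosen after their values were seen, and the separate normalization of the tables allows no test.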
